A study of Mus musculus with 8 samples.

Results

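The genes described here are those of the proteasome, chosen by name: every gene of the count table whose symbol begins with Psm, one of the letters a to g and a number. The rule found 49 of 13786 genes. They were measured by RNA sequencing of CD11c-positive splenocytes, labelled dendritic cells, that had been sorted from the spleens of 7-week-old mice. There were 4 mice of the control strain C57BL/6, labelled WT, and 4 mice of B6.SLE123, a congenic strain on the same background that carries the lupus susceptibility intervals Sle1, Sle2 and Sle3. All 8 mice were female, none had been treated, and the strains differ by everything that these intervals carry, so that no single gene can be credited with a difference. Each library came from a separate mouse by its label, with the strain taken from its title. The libraries held between 25563070 and 37367094 counts, of which the 49 genes took between 0.400% and 0.502%, and the lowest count of any member in any library was 57.

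The proteasome degrades proteins that have been tagged with ubiquitin. Its core particle is a barrel of alpha and beta subunits, some of which cut the chain, and a regulatory particle of a base and a lid recognizes, unfolds and feeds in the substrate. Cells of the immune system exchange the catalytic beta subunits Psmb5, Psmb6 and Psmb7 for Psmb8, Psmb9 and Psmb10, which makes the immunoproteasome, and add the activator PA28, made of Psme1 and Psme2. Both are inducible by interferon-gamma and favor peptides that MHC class I molecules can carry.

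The proteasome genes were, as a set, modestly more abundant in B6.SLE123 than in C57BL/6 cells. With an adjusted p below 0.05 in edgeR's quasi-likelihood test, 34 of the 49 genes were higher in B6.SLE123 and 0 were lower, whereas 15 did not pass. Among all 13786 genes, 26.7% were higher and 26.6% were lower, so that 53.4% differed in either direction. The members are better counted than most genes, which gives a test more power. Among the 7986 genes with a mean of at least 500 counts, 34.8% were higher and 25.3% lower (60.1% in either direction), against 33 higher and 0 lower of the 44 members in that range. The differences were small: the median log2 fold change of the 49 genes was 0.17, a fold of 1.13, compared with -0.002 over all genes and 0.04 over the well-counted ones. None of the members changed more than 2-fold, a size that 11.1% of all genes and 5.2% of the well-counted ones passed. In 30 of the 49 genes every B6.SLE123 mouse was above every C57BL/6 mouse, compared with 24.4% of all genes. For the well-counted genes this was 29 of 44 members against 32.4%. Of the 34 higher calls, 23 held with every other scaling, filter and tool, with the replicate number as a block and without any 1 mouse, and 11 were lost in at least 1 of these. Leaving out 1 mouse left between 24 members called (without B6.SLE123 mouse 2) and 33.

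Summed over the 49 genes, the 4 C57BL/6 mice had 3977, 4069, 4144 and 4258 CPM (counts scaled to a common library size with TMM factors), and the 4 B6.SLE123 mice had 4984, 5046, 4674 and 4648. The strains did not overlap in this sum, and B6.SLE123 mice 1 and 2 were above mice 3 and 4. Without Psmb8, Psmb9, Psmb10, Psme1 and Psme2 the sum was 3043 ± 77.8 CPM in C57BL/6 and 3455 ± 132 CPM in B6.SLE123 (SD, n = 4), again with no overlap between the strains.

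**Figure D1:**
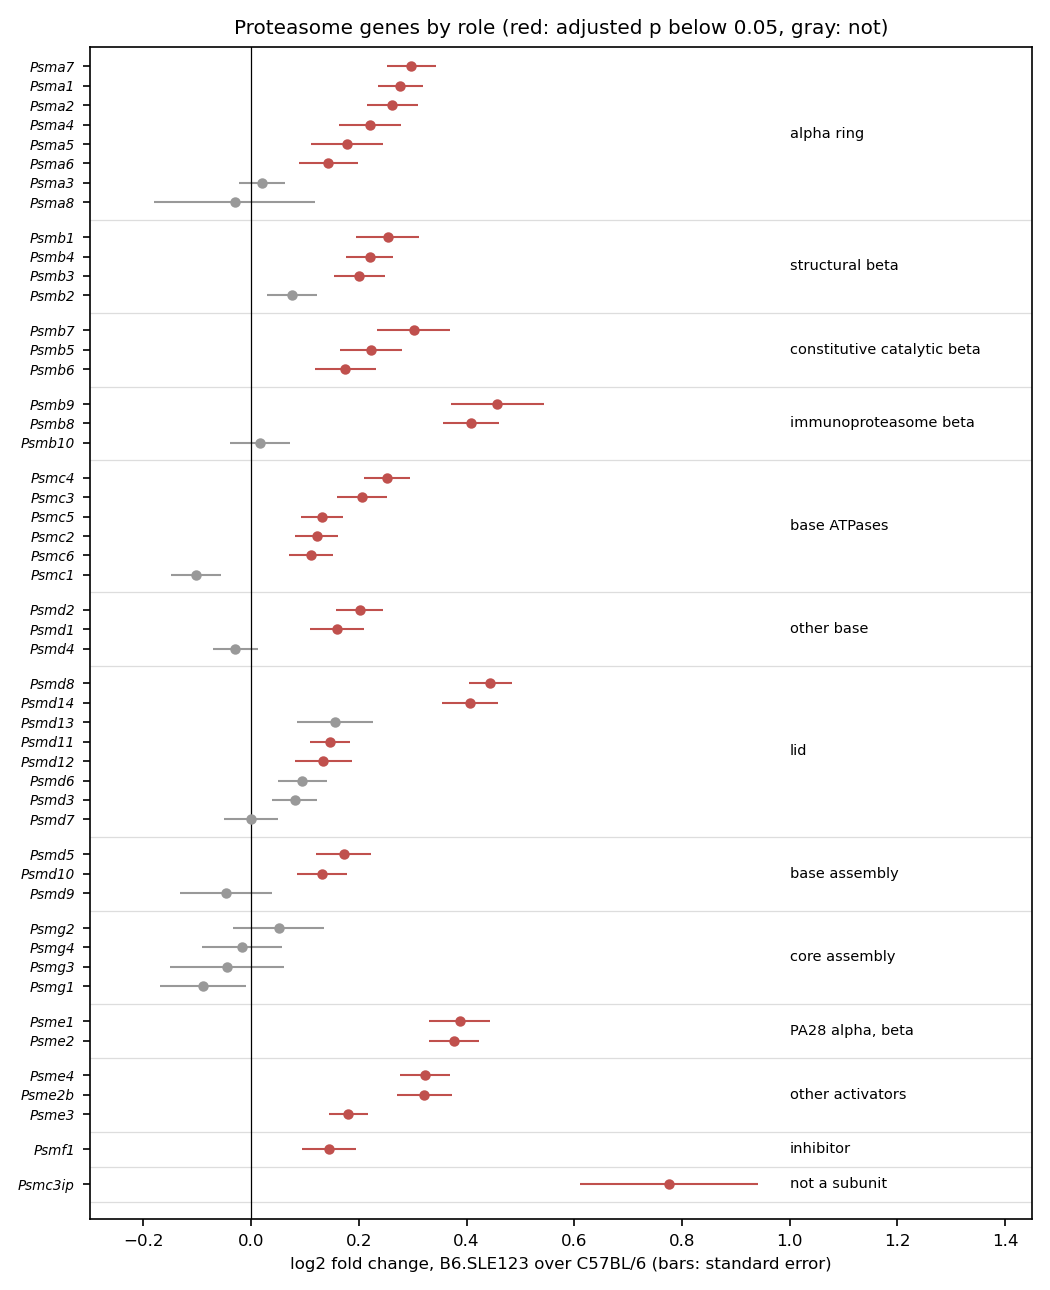
Log2 fold change of each proteasome gene (x axis, B6.SLE123 over C57BL/6; bars are standard errors from edgeR with 4 mice per strain), grouped by role; red points passed an adjusted p of 0.05 and gray points did not. All 34 red points lie above 0, the core assembly factors lie close to 0, and Psmb10 lies apart from Psmb8 and Psmb9.

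**Figure D2:**
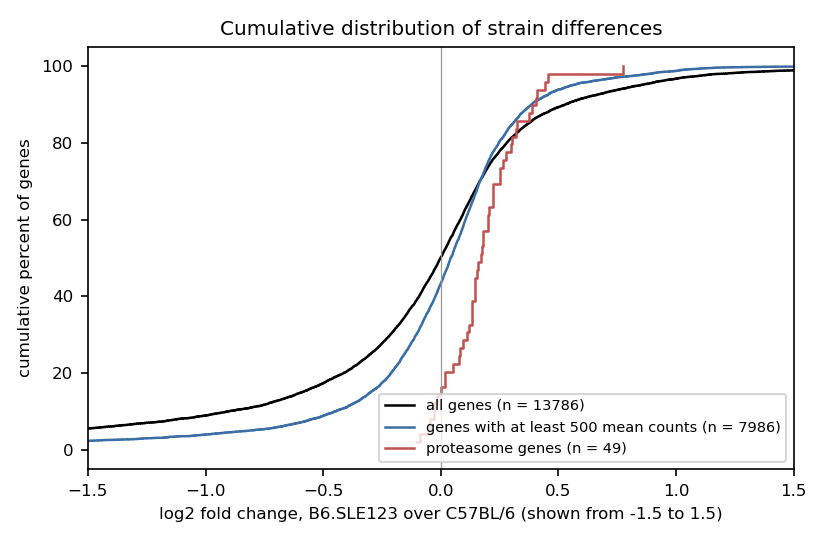
Cumulative percent of genes (y axis) against the log2 fold change (x axis, B6.SLE123 over C57BL/6) for all genes, for genes with a mean of at least 500 counts and for the proteasome genes. The curve of the proteasome genes is steeper than the other curves, with its median at 0.17 compared with -0.002 for all genes, and it crosses them near the top, since none of the members changed more than 2-fold.

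Markers of cell types and of proliferation also differed between the strains. All 10 red pulp macrophage markers were lower in B6.SLE123, with a summed level of 11606 to 14857 CPM in C57BL/6 and 1679 to 3321 CPM in B6.SLE123. That list includes Csf1r, C1qa, C1qb and C1qc, which the study also reported in monocyte-related dendritic cells of the spleen. The 7 proliferation markers were all higher, at 564 to 622 CPM in C57BL/6 and 1034 to 1348 CPM in B6.SLE123, as were all 7 dendritic cell markers, which include Itgax, the gene of CD11c (22728 to 26494 CPM against 28026 to 29453 CPM). Of the 7 B cell markers 6 were lower, of the 6 erythroid markers 5, of the 6 T cell markers 2 and of the 4 neutrophil markers 2. Of the 6 markers of type 1 conventional dendritic cells 4 were higher and 1 was lower, whereas 2 of 6 type 2 markers were lower. Further, 1 of 6 plasmacytoid dendritic cell markers was higher and 2 were lower, 1 of 5 plasma cell markers was higher and 2 were lower, and 0 of 5 NK cell markers passed. The shares lower among T cell, type 2 and plasmacytoid dendritic cell markers were near the 26.6% of all genes. No marker was at 0 counts in all mice. In bulk samples, fewer cells of a type and less RNA per cell cannot be told apart, and the part that these shifts have in the values of the proteasome genes was not tested.

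The immunoproteasome genes did not move together: Psmb8 and Psmb9 were higher in B6.SLE123, and Psmb10 did not pass the test. Psmb8 (ENSMUSG00000024338.15), which encodes beta5i, the subunit with chymotrypsin-like activity, lies on the plus strand in the MHC region at chr17:34197721-34201454 of mm10. It had 200.0, 211, 205 and 223 CPM in the C57BL/6 mice and 285, 298, 268 and 262 CPM in the B6.SLE123 mice. All 4 B6.SLE123 mice were above all C57BL/6 mice, with a log2 fold change of 0.41 (SE 0.05), a 1.33-fold rise (edgeR adjusted p = 7.7e-05). Psmb9 (ENSMUSG00000096727.3), the gene of beta1i, lies next to it on the minus strand at chr17:34181987-34187764. Its levels were 211, 216, 223 and 244 CPM in C57BL/6, compared with 288, 366, 304 and 271 CPM in B6.SLE123. Again the strains did not overlap, and B6.SLE123 mouse 2 was the highest. The log2 fold change was 0.46 (SE 0.09), a fold of 1.37 (edgeR adjusted p = 0.00104). Psmb9 shares 212 exonic bases with Tap1 on the opposite strand and Psmb8 shares 498 with the antisense gene Gm20496, and whether counting used the strand is not stated.

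Psmb10 (ENSMUSG00000031897.9), the gene of beta2i with trypsin-like activity, lies on the minus strand at chr8:105935735-105938444. It showed 98.9, 97.4, 104 and 111 CPM in C57BL/6 and 99.4, 104, 112 and 101 CPM in B6.SLE123. The strains overlapped throughout, with a log2 fold change of 0.02 and a 95% interval from -0.11 to 0.14 (edgeR adjusted p = 0.824). The intervals of Psmb8 (0.29 to 0.52) and of Psmb9 (0.27 to 0.65) lie wholly above that of Psmb10. As a description chosen after the values were seen, the log2 ratio of Psmb8 to Psmb10 counts within a mouse was 1.03 ± 0.06 in C57BL/6 and 1.42 ± 0.13 in B6.SLE123 (SD, n = 4), and that of Psmb9 to Psmb10 was 1.12 ± 0.02 and 1.55 ± 0.18. Psmb11, the beta subunit of the thymic proteasome, was not analysed here.

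**Figure D3:**
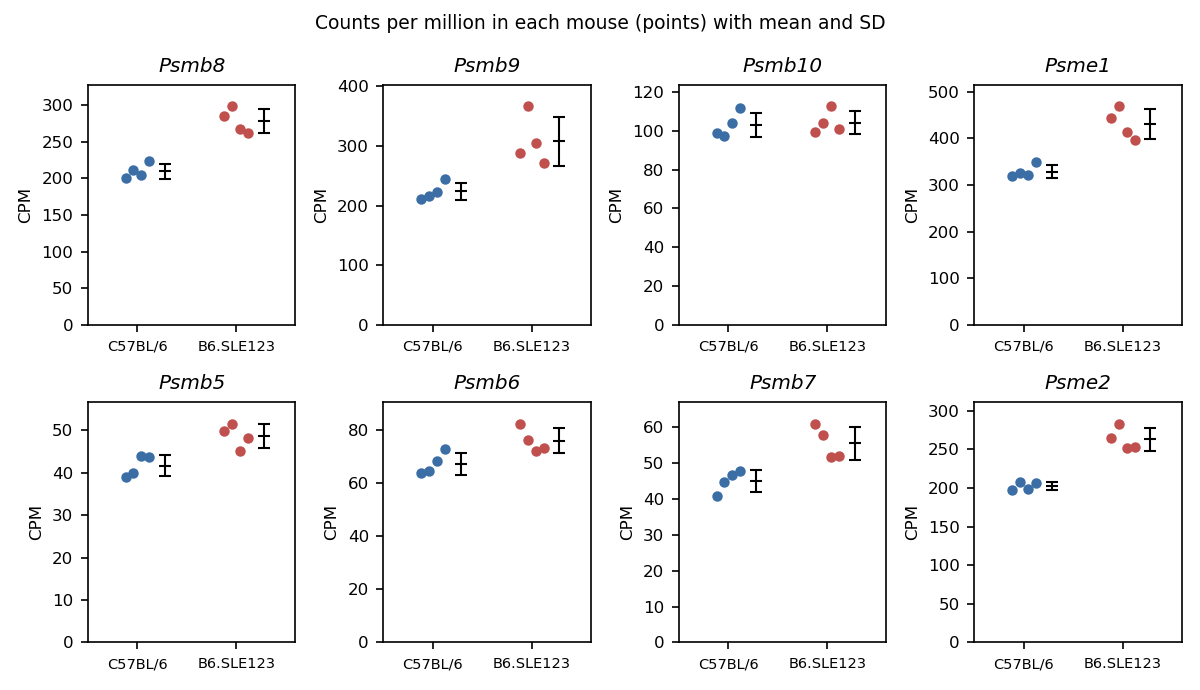
CPM (y axis, from 0) of the immunoproteasome genes and Psme1 (top) and of the constitutive counterparts and Psme2 (bottom) in each of 4 C57BL/6 (blue) and 4 B6.SLE123 (red) mice, with the mean and SD in black. The strains are apart for Psmb8, Psmb9, Psme1, Psme2, Psmb5 and Psmb7, and overlap for Psmb10 and Psmb6.

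The constitutive catalytic subunits rose as well, by less than Psmb8 and Psmb9. Psmb5 (ENSMUSG00000022193.7), the constitutive chymotrypsin-like subunit at chr14:54614119-54618022, minus strand, had 39.1, 40.0, 43.9 and 43.8 CPM in C57BL/6 and 49.8, 51.6, 45.1 and 48.3 CPM in B6.SLE123. The strains did not overlap, with B6.SLE123 mouse 3 closest to the C57BL/6 mice (log2 fold change 0.22, SE 0.06, edgeR adjusted p = 0.00751). Of the 50-base stretches of its transcript, 57.1% occur in other annotated transcripts, mostly pseudogenes, so its level is uncertain. Psmb7 (ENSMUSG00000026750.6), the constitutive trypsin-like subunit at chr2:38588036-38644087, minus strand, had 40.9, 44.6, 46.7 and 47.8 CPM in C57BL/6 against 60.9, 57.7, 51.5 and 51.8 CPM in B6.SLE123. No mice of the strains overlapped (log2 fold change 0.30, SE 0.07, edgeR adjusted p = 0.0032), and 405 of its exonic bases are shared with Nek6 on the opposite strand.

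Psmb6 (ENSMUSG00000018286.6), the constitutive caspase-like subunit at chr11:70525367-70527858, plus strand, had 63.9, 64.5, 68.4 and 72.8 CPM in C57BL/6 and 82.5, 76.5, 72.4 and 73.2 CPM in B6.SLE123. C57BL/6 mouse 4 was above B6.SLE123 mouse 3, so the strains overlapped (log2 fold change 0.18, SE 0.06, edgeR adjusted p = 0.0236). The call was lost without C57BL/6 mouse 1 (adjusted p = 0.0701 in edgeR) or 2 (0.0645), and without B6.SLE123 mouse 1 (0.0681) or 2 (0.0576).

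Short stretches before the start sites of some of these genes match letters that known regulatory factors can bind. Binding was not tested. Windows of 250 bases before the RefSeq start (GRCm38.p6) were searched on both strands for GAAA followed by any 2 bases and GAAA again, the interferon-stimulated response element, TTCNNNGAA, the gamma-activated site, and TGACNNNGC, the antioxidant response element, with overlapping matches allowed. Windows were found for 41 of the 49 genes, and Psmb7 is among the 8 that were not searched. The stretches below, 30 bases for Psmb8 and 60 bases for the others, are printed because they hold the matches found in the catalytic genes that were searched, in capitals, and all run 5′ to 3′ on the strand of the gene.
Psmb8, chr17:34198087-34198116, plus strand, gamma-activated site: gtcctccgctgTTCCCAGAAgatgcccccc
Psmb5, chr14:54618023-54618082, minus strand, antioxidant response element: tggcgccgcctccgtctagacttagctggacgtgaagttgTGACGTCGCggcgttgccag
Psmb6, chr11:70525297-70525356, plus strand, antioxidant response element: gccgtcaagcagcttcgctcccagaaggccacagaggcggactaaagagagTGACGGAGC

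The match of Psmb8 begins 97 bases before the start, inside an exon of a longer annotated transcript, that of Psmb5 begins 47 bases and that of Psmb6 begins 9 bases before it. The gamma-activated site occurred in 2 of the 41 members searched (4.88%), compared with 7.02% of all 32851 windows. These members were Psmb8, which was higher, and Psmg1, which did not pass. The interferon-stimulated response element was found in 3 members (7.32%), Psmb3 (higher), Psmd4 and Psmd9 (both not called), against 2.98% of all windows. The antioxidant response element was found in 5 members (12.2%), against 10.2% of all windows. Among the 5, Psmb5, Psmb6, Psmc6 and Psmd12 were higher and Psmd9 was not called. The windows of Psmb9, Psmb10, Psme1 and Psme2 held none of these letters, and that of Psmb9 lies wholly inside annotated exons.

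To ask whether the balance between immunoproteasome and constitutive partners differed, the log2 ratio of the counts of each catalytic pair was taken within each mouse, which removes library size and gene length from the change. The ratio of Psmb8 to Psmb5 was 2.36, 2.40, 2.22 and 2.35 in C57BL/6 and 2.52, 2.53, 2.57 and 2.44 in B6.SLE123. All B6.SLE123 mice were above all C57BL/6 mice, with a difference of 0.18. The ratio of Psmb9 to Psmb6 was 1.73, 1.74, 1.71 and 1.75 in C57BL/6 and 1.80, 2.26, 2.07 and 1.89 in B6.SLE123. The B6.SLE123 mice were again higher, by 0.27, and spread more widely. The ratio of Psmb10 to Psmb7 moved the other way, from 1.27, 1.13, 1.15 and 1.22 in C57BL/6 to 0.71, 0.85, 1.13 and 0.96 in B6.SLE123. The highest B6.SLE123 value, that of mouse 3, was just under the lowest C57BL/6 value, and the difference was -0.28.

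For each of the 3 pairs the exact two-sided permutation p was 0.0286, the smallest that 4 mice against 4 can give, and 0.0286 after Benjamini-Hochberg adjustment over the 3 pairs. These calls rest on few mice. Without C57BL/6 mouse 3 the exact p of Psmb8 to Psmb5 was 0.0571 (difference 0.15). That of Psmb9 to Psmb6 was 0.0857 without C57BL/6 mouse 1 or 3 and 0.0571 without mouse 2 or 4, and that of Psmb10 to Psmb7 was 0.0571 without any of the 4 C57BL/6 mice, whereas the directions held.

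**Figure D4:**
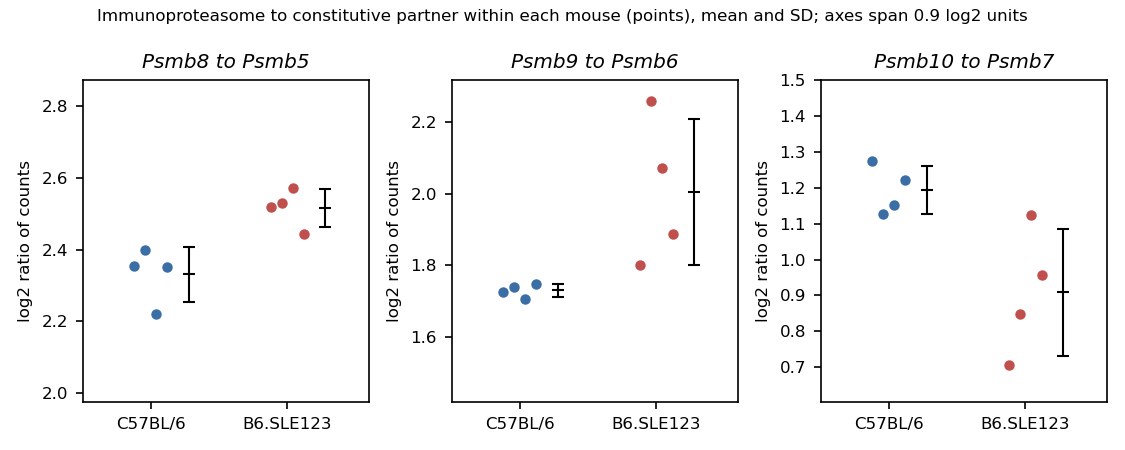
Log2 ratio of the counts of each immunoproteasome gene to its constitutive partner (y axis, each panel spanning 0.9 log2 units) in each C57BL/6 (blue) and B6.SLE123 (red) mouse, with the mean and SD in black. The ratio is higher in B6.SLE123 for Psmb8 to Psmb5 (by 0.18) and Psmb9 to Psmb6 (by 0.27), and for Psmb10 to Psmb7 the difference is -0.28.

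Of the constitutive core particle without Psma8, 12 of 14 genes were higher, and the fold changes on the log2 scale ran from 0.02 to 0.30 around a median of 0.22. Psmb8, Psmb9, Psme1 and Psme2 all had larger fold changes than each of these 14 genes. In the alpha ring, whose subunits form the gate of the barrel, Psma7 was the highest at 0.30 (edgeR adjusted p = 0.00026), with 118, 119.6, 124 and 117 CPM in C57BL/6 and 154, 154, 141 and 140.5 CPM in B6.SLE123. Its strains did not overlap. Psma1 (0.28), Psma2 (0.26), Psma4 (0.22), Psma5 (0.18) and Psma6 (0.14) passed as well, but the calls of Psma5 and Psma6 rest on few mice. Psma5 lost its call without C57BL/6 mouse 1, 2 or 3 or B6.SLE123 mouse 1 or 2 (edgeR adjusted p = 0.0656 to 0.125), and Psma6 without C57BL/6 mouse 1, 2 or 4 or B6.SLE123 mouse 1, 2 or 4 (0.0597 to 0.139). The call of Psma6 was also lost in DESeq2 (adjusted p = 0.0504), with relative log expression factors (0.0501 in edgeR) and with the count filter (0.0667), and that of Psma5 with the count filter (0.0557). Of the 50-base stretches of the transcripts, 55.4% of Psma5 and 31.5% of Psma4 occur in other transcripts, so that their levels are uncertain. Psma3 did not pass (0.02, edgeR adjusted p = 0.723). Psma8, the alpha subunit of the testis, was the lowest member, at 2.71 ± 0.35 CPM in C57BL/6 and 2.65 ± 0.33 CPM in B6.SLE123 (SD, n = 4), and did not pass. Among the structural beta subunits, which do not cut, Psmb1 (0.25), Psmb4 (0.22) and Psmb3 (0.20, with 55.8% of its stretches shared) were higher, and Psmb2 did not pass (0.08, edgeR adjusted p = 0.194).

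In the regulatory particle, 11 of 17 genes were higher (median log2 fold change 0.13), and the largest rises were in the lid. Psmd8, a structural subunit of the lid at chr7:29174188-29180701, minus strand, had 105, 109.7, 108 and 109.5 CPM in C57BL/6 and 152, 144, 141 and 151 CPM in B6.SLE123. The strains did not overlap (log2 fold change 0.44, SE 0.04, edgeR adjusted p = 6.2e-06). Psmd14, the deubiquitinase that removes ubiquitin chains as the substrate enters, at chr2:61711694-61800376, plus strand, had 58.9, 60.4, 61.6 and 63.3 CPM in C57BL/6 and 85.0, 85.6, 77.2 and 75.7 CPM in B6.SLE123. Its strains did not overlap either (log2 fold change 0.41, SE 0.05, edgeR adjusted p = 6.8e-05). These lid genes thus had fold changes about as large as that of Psmb8 (0.41), an inducible subunit.

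The other lid genes changed less or did not pass. Psmd11 (0.15) and Psmd12 (0.13) were higher, but Psmd12 lost its call in DESeq2 (adjusted p = 0.0559), in limma-voom (0.0506), with library size alone (0.0513), with the count filter (0.0639) and without C57BL/6 mouse 1, 2 or 3 or B6.SLE123 mouse 1, 2 or 4 (edgeR adjusted p = 0.0551 to 0.17). Psmd13 (0.16), Psmd6 (0.10), Psmd3 (0.08) and Psmd7 did not pass. Psmd7, the partner of Psmd14, had 57.7, 55.4, 61.5 and 62.5 CPM in C57BL/6 and 62.7, 58.1, 59.1 and 57.4 CPM in B6.SLE123, with overlapping strains (95% interval of the log2 fold change from -0.11 to 0.11).

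Of the 6 ATPases of the base, which unfold the substrate, 5 were higher: Psmc4 (log2 fold change 0.25), Psmc3 (0.21), Psmc5 (0.13), Psmc2 (0.12) and Psmc6 (0.11). The call of Psmc5 was lost without B6.SLE123 mouse 2 (edgeR adjusted p = 0.0558), that of Psmc2 without C57BL/6 mouse 1 or 2 or B6.SLE123 mouse 1, 2 or 4 (0.0501 to 0.0731), and that of Psmc6 without C57BL/6 mouse 1, 3 or 4 or any of the B6.SLE123 mice (0.0589 to 0.116). Psmc6 also lost it with library size alone (edgeR adjusted p = 0.055) and with the count filter (0.0531). Psmc1, at chr12:100110154-100123405, went the other way, with 83.0, 81.5, 89.5 and 85.1 CPM in C57BL/6 and 81.3, 81.2, 74.5 and 79.0 CPM in B6.SLE123. It was the only member whose 4 B6.SLE123 values all lay under the 4 C57BL/6 values, a pattern that 24.5% of all genes showed, and it did not pass the test (-0.10, edgeR adjusted p = 0.0817). Among the other genes of the base, the scaffold subunits Psmd2 (0.20) and Psmd1 (0.16) were higher, whereas the ubiquitin receptor Psmd4 did not pass (-0.03, edgeR adjusted p = 0.586). Psmd1 lost its call without C57BL/6 mouse 1 or 2 or B6.SLE123 mouse 1 or 4 (edgeR adjusted p = 0.0569 to 0.0618).

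Both genes of PA28 rose by the same order as Psmb8. Psme1 (ENSMUSG00000022216.17), the alpha subunit, at chr14:55578123-55581529, plus strand, had 319, 325, 322 and 349.7 CPM in C57BL/6 and 443, 469, 413 and 396 CPM in B6.SLE123. Psme2 (ENSMUSG00000079197.10), the beta subunit, at chr14:55587441-55591113, minus strand, had 198, 208, 199 and 207 CPM in C57BL/6 and 264, 284, 252 and 253 CPM in B6.SLE123. Neither gene overlapped between the strains. The log2 fold change was 0.39 (SE 0.06, edgeR adjusted p = 0.000198) for Psme1 and 0.38 (SE 0.05, edgeR adjusted p = 5.8e-05) for Psme2.

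Psme2b, a copy of Psme2 without introns at chr11:48945354-48946190, shares 68.7% of its 50-base stretches with Psme2, so reads could be split between them. It was higher as well (0.32), and it held 14.5% to 15.3% of the sum of both in every mouse, whose log2 ratio between the strains was 0.37. Psme3, the gamma form of the activator, which is nuclear, rose less (0.18, edgeR adjusted p = 0.00162). Psme4, the activator PA200 at chr11:30771726-30880361, plus strand, had 110.3, 112, 104 and 100.4 CPM in C57BL/6 and 135, 134, 128 and 137 CPM in B6.SLE123. Its strains did not overlap (log2 fold change 0.32, SE 0.05, edgeR adjusted p = 0.000159). The inhibitor Psmf1 also passed (0.14, edgeR adjusted p = 0.0328), with 31.3 ± 1.02 CPM in C57BL/6 and 34.6 ± 1.66 CPM in B6.SLE123 (SD, n = 4), but lost its call without C57BL/6 mouse 1, 2 or 3 or B6.SLE123 mouse 1, 2 or 4 (edgeR adjusted p = 0.0526 to 0.114).

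Of 7 assembly factors 2 were higher, against 26.7% of all genes, and their median log2 fold change was -0.02. Their difference from the subunits was not tested. None of the 4 core assembly chaperones passed: Psmg1 was at -0.09, Psmg2 at 0.05, Psmg3 at -0.04 and Psmg4 at -0.02 on the log2 scale, with overlapping strains in each. The intervals are wide, and that of Psmg2, for example, runs from -0.13 to 0.24 and so holds the median of the core particle. Of the chaperones of the base, Psmd5 (0.17) and Psmd10 (0.13) were higher and Psmd9 did not pass (-0.05), but the call of Psmd5 was lost without B6.SLE123 mouse 2 (edgeR adjusted p = 0.052) and that of Psmd10 in DESeq2 (0.0612) and without C57BL/6 mouse 1, 2 or 3 or B6.SLE123 mouse 2, 3 or 4 (edgeR adjusted p = 0.0577 to 0.0984).

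The largest fold change among the 49 genes belonged to a gene that shares only the name. Psmc3ip, at chr11:101091823-101095436, minus strand, encodes a protein of homologous recombination that was named for binding Psmc3. It had 4.09, 3.34, 2.81 and 2.32 CPM in C57BL/6 and 5.41, 6.05, 5.03 and 4.84 CPM in B6.SLE123. The strains did not overlap (log2 fold change 0.78, SE 0.17, edgeR adjusted p = 0.00238). Of its exonic bases, 385 are shared with Mlx on the opposite strand. Without it, 33 members were higher.

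Levels of different genes were compared as CPM per kb of exon. Psme1 and Psme2 were the most abundant members in both strains, at 149 and 115 CPM per kb in C57BL/6 and 195 and 149 CPM per kb in B6.SLE123. In C57BL/6 the 3 immunoproteasome genes lay close together, at 62.1 for Psmb8, 61.1 for Psmb9 and 60.3 CPM per kb for Psmb10, which differ by less than the SD between mice (2.99, 4.01 and 3.71). In B6.SLE123 Psmb8 and Psmb9 reached 82.4 and 83.9 CPM per kb, whereas Psmb10 was at 61.0. How close these 3 genes lie depends on the length used. All exons span 3381 bases for Psmb8, 3660 for Psmb9 and 1705 for Psmb10. The longest coding transcripts have 1628, 1352 and 1311 bases in the same order. The constitutive core had a median of 35.5 CPM per kb in C57BL/6 and 41.5 in B6.SLE123, the regulatory particle 21.6 and 26.2, and the assembly factors 7.06 and 6.64.

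**Figure D5:**
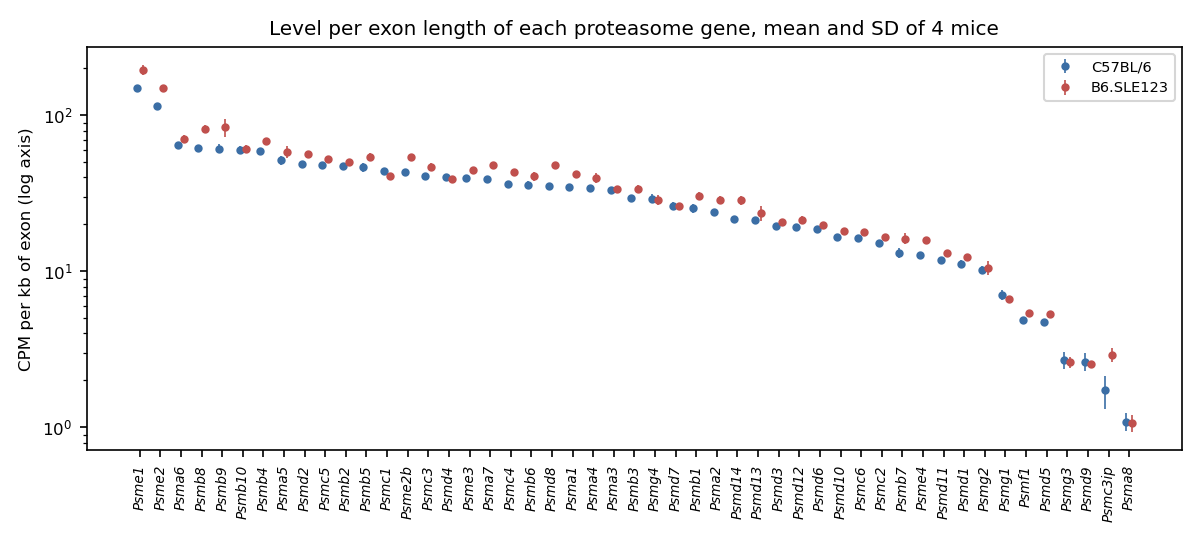
Level of each proteasome gene in CPM per kb of exon (y axis, log scale; mean and SD of 4 mice) in C57BL/6 (blue) and B6.SLE123 (red), ordered by the level in C57BL/6. Psme1 and Psme2 are the highest in both strains (149 and 115 CPM per kb in C57BL/6), and Psma8 is the lowest (1.09).

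By length, the immunoproteasome gene was the larger member of each catalytic pair in both strains. Psmb8 made up 57.2% ± 1.31 of the level of Psmb8 and Psmb5 in C57BL/6 and 60.3% ± 0.89 in B6.SLE123 (SD, n = 4). Psmb9 was 62.9% ± 0.29 of its pair with Psmb6 in C57BL/6 and 67.2% ± 3.08 in B6.SLE123, and Psmb10 was 82.1% ± 0.68 of its pair with Psmb7 and 79.0% ± 2.03. The shares depend on the length used. With the longest annotated transcript, coding or not, in place of all exons, Psmb8 was 70.3% and 72.9%, and Psmb9 was 52.6% and 57.3%. The lengths of the longest coding transcripts given above were not used for these shares.

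The members lie on 16 chromosomes, and 13 of these hold at least 1 member that was higher. Which members lie inside the intervals Sle1, Sle2 and Sle3 was not determined, and local effects of the alleles there were not tested. Of the chromosomes with at least 3 members, chromosome 2 had 6 of 6 higher, chromosome 17 had 3 of 3 (Psmb1, Psmb8 and Psmb9), chromosome 11 had 9 of 10, chromosome 14 had 4 of 5, chromosome 7 had 3 of 4, chromosome 3 had 2 of 3, and chromosomes 5 and 12 had 1 of 3 each. On chromosome 8, Psmb10 and Psmd7 both did not pass. Over all chromosomes 34 of the 49 members were higher, compared with 26.7% of all genes and 34.8% of the well-counted ones. The share of all genes on each chromosome is not given here, so these counts say nothing about position.

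Partners of the proteasome outside the name rule were counted from a list of 27 gene symbols, of which 24 were found in the count table. Of these, 12 were higher and 4 were lower, with a median log2 fold change of 0.11, compared with 26.7% and 26.6% of all genes and 34.8% and 25.3% of the well-counted ones. Uchl5, a deubiquitinase bound to the regulatory particle, had the largest rise (27.1 ± 0.77 CPM in C57BL/6, 34.1 ± 1.85 in B6.SLE123; log2 fold change 0.33, edgeR adjusted p = 0.00033). Pomp, the maturation factor of the core particle, was higher by 0.31 from 136 ± 5.35 to 169 ± 13.1 CPM (edgeR adjusted p = 0.000995). Nfe2l1, whose product activates proteasome genes, was lower at -0.16 (edgeR adjusted p = 0.0093). Nfe2l2, the factor of the oxidative stress response, was lower at -0.29 with overlapping strains (edgeR adjusted p = 0.0186). Both were named after their values were seen. Ddi2, the protease that releases the Nfe2l1 product, was higher (0.25) and was also named afterwards.

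In the pathway that loads proteasome peptides onto MHC class I, 5 of 13 genes were higher, 1 was lower, and the median log2 fold change was 0.08. Over all genes 26.7% were higher, and over the well-counted ones 34.8%, so the count is close to that background. Tap1, a subunit of the peptide transporter that lies beside Psmb9, rose from 393 ± 4.83 to 528 ± 52.7 CPM (0.43, edgeR adjusted p = 0.000213). Nlrc5, the transactivator of class I genes, rose from 259 ± 16.4 to 347 ± 76.1 CPM with overlapping strains (0.43, edgeR adjusted p = 0.0162), and Tapbpl, a peptide editor, from 74.5 ± 4.17 to 94.8 ± 4.01 CPM (0.35, edgeR adjusted p = 0.000182). The genes of the presenting molecule itself did not pass, with B2m at -0.001, H2-K1 at 0.08 and H2-D1 at -0.01; they were named after their values were seen.

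Other genes that interferon induces moved in both directions. Of 14 interferon-gamma response genes 3 were higher and 4 were lower, with a median log2 fold change of -0.08, shares near the 26.7% and 26.6% of all genes. Their summed level was nevertheless higher without overlap, at 1812 to 2007 CPM in C57BL/6 and 2107 to 2475 CPM in B6.SLE123. Ciita, the transactivator of MHC class II genes, alone rose by more than the mean of this sum, so the other genes together did not add to it. It rose without overlap (924 ± 59.5 to 1306 ± 58.2 CPM, log2 fold change 0.50, edgeR adjusted p = 2.6e-05), as did Socs1, an inhibitor of cytokine signaling (9.45 ± 1.12 to 14.3 ± 0.82 CPM, log2 fold change 0.60, edgeR adjusted p = 0.00025). Both were named after their values were seen. The GTPase genes Iigp1 (35.2 ± 5.73 to 14.0 ± 6.08 CPM; -1.32, edgeR adjusted p = 0.000877) and Gbp3 (47.8 ± 1.30 to 26.9 ± 2.56 CPM; -0.83, edgeR adjusted p = 2.2e-06) fell, whereas the chemokine gene Cxcl9 rose with overlapping strains (87.4 ± 18.1 to 150.1 ± 35.9 CPM; 0.78, edgeR adjusted p = 0.0043). Irf1 (0.003), a transcription factor of this response, did not pass and was named after its values were seen. Of 10 measured type I interferon response genes 1 was higher and 3 were lower, with a median of -0.07, against the same 26.7% and 26.6% of all genes. Ifit3 (-0.89) and Rtp4 (-0.75) were lower and Oasl1 (0.61) was higher.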

How the data were processed

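CD11c-positive splenocytes of 8 mice, 4 per strain, gave the RNA, which was purified with a column kit, and libraries were made with a stranded mRNA kit. Per the labels, the authors used FastQC, cutadapt, STAR, featureCounts and the mm10 build; versions and the strand setting of the counting are not given in the sources used here. The authors deposited raw counts per gene and mouse for 13786 genes, in none of which the median of the higher strain was below 5 counts, beside their own DESeq2 comparison, which was not used. Depth was 25563070 to 37367094 counts per library, and replicates differed by more than counting noise.

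The quasi-likelihood F test of edgeR 4.0.16 in R 4.3.3 was run on these counts with TMM factors, without a filter or block, with Benjamini-Hochberg adjustment over all 13786 genes. P-values below 0.05 after adjustment were called. CPM values are TMM-scaled, and fold changes are B6.SLE123 over C57BL/6. The fit was tested on simulated data. Within-mouse ratios of the raw counts were compared with exact permutation tests, and 0.5 added to each count was an alternative. Exon lengths, overlaps and shared 50-base stretches came from GENCODE M21, in which all 49 members have the coordinates of the table. Alternatives were other scaling factors, a minimum of 10 counts in each library, DESeq2 1.42.0, limma-voom (limma 3.58.1), a block for the replicate number, other thresholds and each mouse left out. The members and lists were chosen with earlier results of these data known. Named with full values were Psmb5 to Psmb10, Psme1, Psme2 and, among other members called, the 4 largest rises (no fall was called); of each other list, the 3 largest changes called, of which 1 partner gene is not reported here; members of a role class were named with that class. The background of well-counted genes, the ratios to Psmb10 and the sum of Psme2 and Psme2b were chosen after seeing the data.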

Additional observations from a re-analysis of the deposited data

Results flagged for a closer look

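In 104 groups of 4 mice, which are the 49 genes and the 3 pair ratios in each strain, 3 groups held a mouse whose distance from the others exceeded Dixon's 95% limit, where chance alone gives about 1 in 20, or 5.2. Psma8 was at 1.17 log2 CPM in C57BL/6 mouse 2, with a median of 1.56 over the 4 mice. Psmg2 and Psmg4 were both high in C57BL/6 mouse 4, at 4.29 log2 CPM (median 4.12) and 4.16 log2 CPM (median 3.98). None of these genes was called different between the strains.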

How the results depend on the processing

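Of the values that answer a comparison, 391 kept their direction and size under the alternatives, 8 moved and 12 lost their call. The number of members called was 34 and ranged from 30 to 33 with another scaling, filter or tool, was 23 at an adjusted p below 0.01, and was 0 with a fold above 2 required; the same held for members called higher, also 0. Whether the replicate numbers pair the mice, for example through a shared batch, cannot be told from these data. Same-numbered mice correlated at 0.08, 0.23, 0.10 and 0.12, and differently numbered mice at -0.244 to 0.0981. Not every mouse correlated best with its own number, but the gap could be small. C57BL/6 mouse 1, for example, was at 0.0795 with B6.SLE123 mouse 3 and at 0.0763 with B6.SLE123 mouse 1. With the replicate block 28 members were called, and the pair ratios, 0.18 (Psmb8 to Psmb5), 0.27 (Psmb9 to Psmb6) and -0.28 (Psmb10 to Psmb7), had an exact sign-flip p of 0.125, the smallest that 4 pairs allow. Leaving out 1 mouse gave 0.15 to 0.21, 0.19 to 0.34 and -0.36 to -0.22 for these ratios, and 0.27 to 0.34 for the median of Psme2b, Psme3 and Psme4. With the longest annotated transcript, coding or not, as length, Psmb8 made up 70.3% in C57BL/6 and 72.9% in B6.SLE123. Psmb9 made up 52.6% and 57.3%, and Psmb10 83.2% in C57BL/6. Genes near 0 changed sign when 1 mouse was left out: Psma3 (log2 fold change -0.0050 to 0.051), Psma8 (-0.12 to 0.028), Psmb10 (-0.023 to 0.047), Psmd7 (-0.031 to 0.018, and 0.0012 with the replicate block), Psmd9 (-0.096 to 0.050), Psmg3 (-0.10 to 0.034) and Psmg4 (-0.069 to 0.021). None of these was called, and the cause was not tested.

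The lowest count of a member in a library was 57, so few counts limit Psma8 and Psmc3ip more than the others. The edgeR p-values set the strain difference against variation between mice, which was estimated from 4 mice per strain with information shared across genes. Psmb5, Psmb3, Psma5, Psma4, Psme2 and Psme2b, among others, carry sequence that other transcripts share.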
